A study of Mus musculus with 10 samples.

Results

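The 9 genes described here are Cpt1a, Cpt1b, Cpt2, Acadl, Acadm, Acadvl, Hadha, Hadhb and Pdk4, enzymes of mitochondrial fatty acid oxidation together with the kinase that slows its main competitor. They were chosen by name for their place in the pathway, with earlier results of these data known. They were looked up by gene symbol, using probe sets annotated with 1 symbol only. A gene with several such probe sets was read from the brightest on average. By this rule 8 of the 9 were measured, among 22180 genes in all. Cpt1b was the exception, since its only probe set carries 3 gene symbols.

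The study profiled whole aortas of 10 male C57BL/6 mice on Affymetrix Mouse Gene 2.0 ST arrays. In 5 mice both the apolipoprotein E gene (ApoE) and the IL-17 gene were deleted (ApoE/IL-17 double knockout), and in the other 5 ApoE alone was deleted (ApoE knockout), so that the lack of ApoE, which leaves plasma lipoproteins high, is common to both groups. At 8 weeks of age all mice were put on a high fat diet, and aortas were collected 3 weeks later, at 11 weeks, to follow early dyslipidemia. The comparison asks what the loss of the cytokine IL-17 changes in the ApoE-deficient aorta. The replicates are labelled as biological. The 2 groups carry different protocol texts, and that of the ApoE knockout speaks of wild-type and ApoE/caspase-1 deficient animals but not of IL-17. With no batch or scan date stated, a batch effect and the genotype cannot be told apart. How far the aortas were cleaned of surrounding fat is not stated either.

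Fatty acids enter mitochondria as carnitine esters, made by carnitine palmitoyltransferase 1 on the outer membrane and turned back into acyl-CoA by carnitine palmitoyltransferase 2 on the inner membrane. Each turn of the oxidation spiral then starts with an acyl-CoA dehydrogenase and ends with a thiolase, and the trifunctional protein carries out the last steps for long chains. In and around the aorta the pathway is best known for brown and white adipocytes of perivascular fat, where brown fat burns fatty acids for heat, and for heart muscle. Nuclear receptors of the PPAR family, which bind DNA as heterodimers with RXR, are known activators of many of these genes.

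The sequences around the transcription starts are shown because 7 of the 8 measured genes varied together from array to array while Cpt1a varied the other way, as described below. They come from RefSeq for the build GRCm38.p6 and span 300 bases, from 250 before to 50 after the first base of a transcript. All 8 measured genes had such a window. In each sequence capitals mark the nuclear receptor half-site AGGTCA or the GC box GGGCGG on either strand, so that TGACCT and CCGCCC are the same motifs read on the other strand. The Cpt1a window begins downstream of the first base of the annotated gene, at a start within it. Hadha and Hadhb encode the 2 subunits of the trifunctional protein and lie head to head, with 272 bases between their first bases, so that their windows share the 228 bases printed first.
Hadha and Hadhb, shared stretch, chr5:30155003-30155230, plus strand: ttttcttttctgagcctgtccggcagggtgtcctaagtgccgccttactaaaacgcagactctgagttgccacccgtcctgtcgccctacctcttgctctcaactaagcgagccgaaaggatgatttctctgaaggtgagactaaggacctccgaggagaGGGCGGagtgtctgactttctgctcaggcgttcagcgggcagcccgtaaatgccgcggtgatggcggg
Acadm, chr3:153944594-153944893, minus strand: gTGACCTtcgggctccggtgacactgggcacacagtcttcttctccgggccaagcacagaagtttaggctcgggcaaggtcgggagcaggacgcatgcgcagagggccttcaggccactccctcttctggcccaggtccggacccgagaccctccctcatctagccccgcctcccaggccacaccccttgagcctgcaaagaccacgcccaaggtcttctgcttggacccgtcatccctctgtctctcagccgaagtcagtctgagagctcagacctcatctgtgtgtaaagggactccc
Acadvl, chr11:70015379-70015678, minus strand: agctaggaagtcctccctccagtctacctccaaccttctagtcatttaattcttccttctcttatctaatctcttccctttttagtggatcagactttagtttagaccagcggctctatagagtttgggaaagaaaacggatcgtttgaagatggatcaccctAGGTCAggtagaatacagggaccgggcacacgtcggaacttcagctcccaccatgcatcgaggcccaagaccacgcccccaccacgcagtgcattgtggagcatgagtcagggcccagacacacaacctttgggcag
Cpt1a, chr19:3323051-3323350, plus strand: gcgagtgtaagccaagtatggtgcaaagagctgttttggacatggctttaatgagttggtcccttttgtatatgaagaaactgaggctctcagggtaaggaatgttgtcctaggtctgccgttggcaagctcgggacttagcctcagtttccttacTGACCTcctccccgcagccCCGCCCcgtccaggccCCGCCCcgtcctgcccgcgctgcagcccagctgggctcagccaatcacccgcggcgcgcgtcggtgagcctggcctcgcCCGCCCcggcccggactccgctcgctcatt
The half-site stood in 3 of the 8 windows, those of Acadm, Acadvl and Cpt1a, and in 16.3% of the 32851 mouse windows of this length. The GC box stood in 5 of them (Acadl, Cpt1a, Cpt2, Hadha and Hadhb), against 35.7% of all windows. CCAAT, searched on both strands, was present for Cpt1a and Pdk4 and in 37.4% of all windows. TATAAA was present in 0 of the 8 and in 13.6% of all windows. The classical PPAR and RXR element, searched strictly as 2 copies of the half-site in tandem with 1 base of any kind between them, and so overlapping the half-site search, was present in 0 of the 8 and in 0.0396% of all windows. The half-site was found in Acadm and Acadvl, which varied together, and in Cpt1a, which did not vary with them. Whether any of these sites is bound or bears on the array pattern was not tested.

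Of the 8 measured genes 0 passed the test between double knockout and ApoE knockout aortas, at an adjusted p of 0.05 in limma over all 22180 genes. At an unadjusted p under 0.05 there were 2, Acadm and Acadvl, and a test of each gene on its own variance, with the same adjustment, also called 0. Across all genes 30.3% passed, 22.8% as higher and 7.53% as lower in the double knockout, and 43.0% had an unadjusted p under 0.05. The 8 differences had a median of -0.18 on the log2 scale, beside 0.10 over all genes. Over genes above the receptor gene level, described below, the median was 0.010. Of the 8 differences 7 were negative, that is, lower in the double knockout. Hadhb, the positive one, became negative after quantile normalization (-0.11) and after centring each array on its median (-0.13). In 0 of the 8 genes did the groups separate without overlap, compared with 20.4% of all genes. Quantile normalization moved the median of all genes to -0.018 and centring moved it to -0.11. With this shift the share of higher genes among all called genes was 44.4% and 22.8%, against 75.1% in the deposited values, while the median of the 8 was -0.14 after quantile normalization and -0.38 after centring. After centring 4 of the 8 passed as lower (Cpt1a, Acadm, Acadvl and Hadha), where 25.4% of all genes did. With arrays weighted by their quality 2 passed as lower, Acadm and Acadvl, where 8.9% of all genes did. In a bulk sample, fewer cells of a type and less RNA per cell cannot be told apart.

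**Figure D1:**
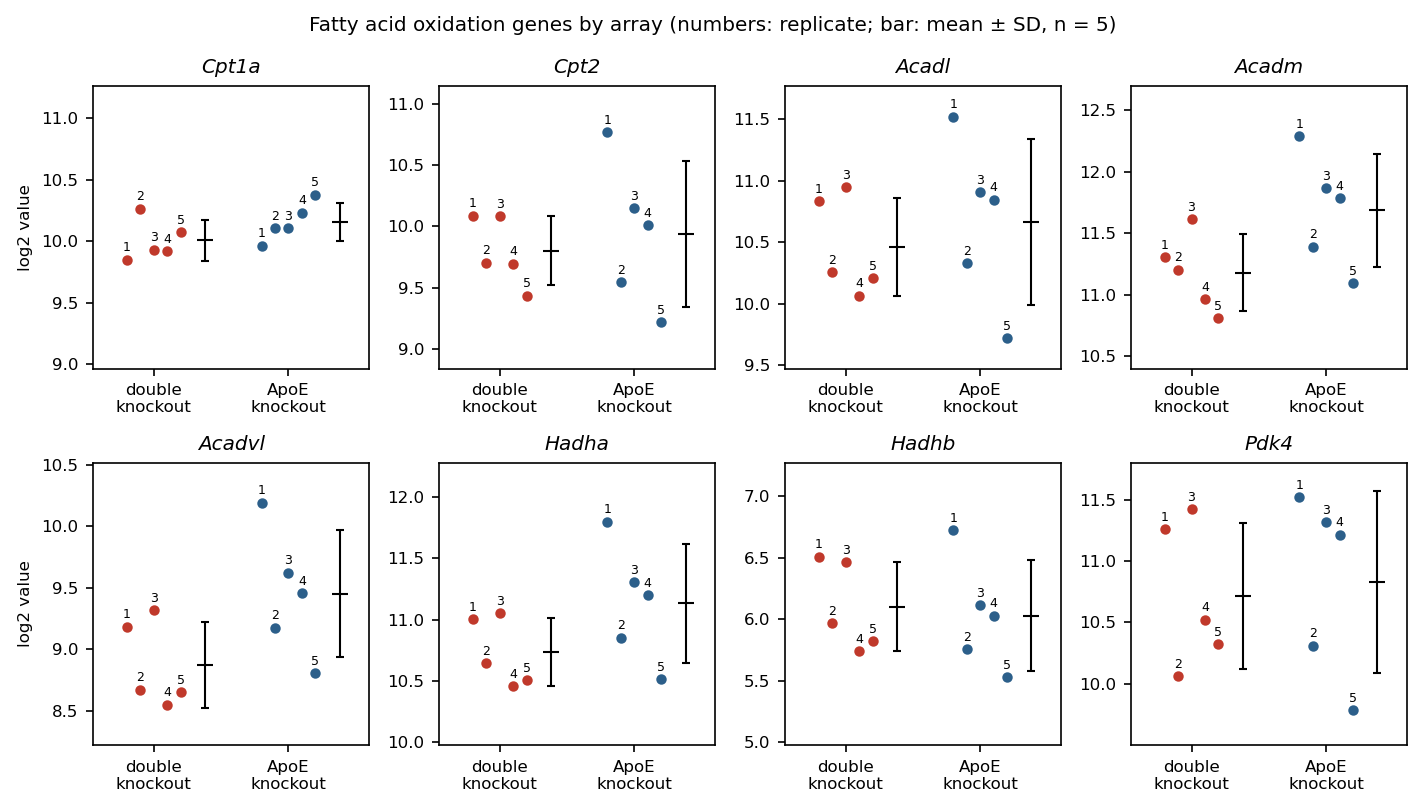
Deposited log2 value (vertical axis, the same span in every panel) of the 8 measured genes in each double knockout (red, left) and ApoE knockout aorta (blue, right). Numbers name the replicate and bars give mean ± SD (n = 5). In 7 genes ApoE knockout replicate 1 is the highest of its group and replicate 5 the lowest, while in Cpt1a replicate 5 is the highest and replicate 1 the lowest. In no panel do the groups separate.

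Carnitine palmitoyltransferase 1 controls entry of fatty acids into the spiral and is inhibited by malonyl-CoA. Cpt1a, the form of liver and many other tissues, had log2 values of 9.85, 10.26, 9.93, 9.92 and 10.07 in double knockout replicates 1 to 5, against 9.96, 10.11, 10.11, 10.23 and 10.38 in ApoE knockout replicates 1 to 5. The groups overlapped, with double knockout replicate 2 above 4 of the 5 ApoE knockout arrays. Cpt1a averaged 10.01 ± 0.17 in the double knockout and 10.16 ± 0.16 in the ApoE knockout (SD, n = 5 each), a difference of -0.15 (SE 0.10, 95% interval -0.37 to 0.070, limma adjusted p = 0.27). It had the narrowest spread of the 8, with 1.33-fold between the highest and lowest array in either group. Cpt1b, the muscle and brown fat form, could be followed only through the probe set it shares with Chkb and Gm44502, and no value of that probe set can be assigned to Cpt1b alone. That probe set gave 9.52, 8.45, 9.47, 8.41 and 8.35 in the double knockout, against 10.24, 8.80, 9.51, 9.28 and 7.70 in the ApoE knockout, a mean difference of -0.27. All double knockout values lay within the ApoE knockout range.

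Cpt2, which releases acyl-CoA inside the mitochondrion, had values of 10.09, 9.70, 10.09, 9.70 and 9.44 in the double knockout, against 10.77, 9.55, 10.15, 10.01 and 9.22 in the ApoE knockout. All 5 double knockout arrays fell within the range of the ApoE knockout, whose replicates 1 and 5 were the highest and lowest of the 10. The difference was -0.14 (SE 0.25, 95% interval -0.69 to 0.41, limma adjusted p = 0.70). Without ApoE knockout replicate 1 it was 0.071.

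The acyl-CoA dehydrogenases carry out the first step of each turn and differ in the chain length they prefer. Acadl, the long-chain enzyme, had values of 10.83, 10.26, 10.94, 10.06 and 10.21 in the double knockout, against 11.52, 10.33, 10.91, 10.85 and 9.72 in the ApoE knockout. The double knockout arrays again lay within the ApoE knockout range, with replicates 1 and 3 above the other 3. The difference was -0.20 (SE 0.30, 95% interval -0.86 to 0.45, limma adjusted p = 0.63), and without ApoE knockout replicate 1 it was 0.011.

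Acadm, the medium-chain dehydrogenase, had values of 11.31, 11.20, 11.62, 10.96 and 10.81 in the double knockout, against 12.29, 11.39, 11.87, 11.79 and 11.09 in the ApoE knockout. Double knockout replicates 4 and 5 lay below every ApoE knockout array, and the other 3 lay within the ApoE knockout range. Acadm averaged 11.18 ± 0.31 in the double knockout and 11.69 ± 0.46 in the ApoE knockout (SD, n = 5 each). The difference of -0.51, or 1.42-fold, had a 95% interval of -0.98 to -0.037 (SE 0.21) and missed the threshold (limma unadjusted p = 0.037, adjusted p = 0.093). Without ApoE knockout replicate 5, the lowest of its group, the difference was -0.66 and passed (limma adjusted p = 0.030), in a fit that called 7.59% of all genes lower.

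Acadvl, the very-long-chain dehydrogenase of the inner membrane, had values of 9.18, 8.67, 9.32, 8.55 and 8.65 in the double knockout, against 10.19, 9.17, 9.62, 9.46 and 8.80 in the ApoE knockout. Double knockout replicates 2, 4 and 5 lay below every ApoE knockout array, while replicates 1 and 3 lay within its range. Acadvl averaged 8.87 ± 0.35 in the double knockout and 9.45 ± 0.52 in the ApoE knockout (SD, n = 5 each). The difference of -0.58, or 1.49-fold, was the widest of the 8 (SE 0.24, 95% interval -1.10 to -0.052, limma unadjusted p = 0.034, adjusted p = 0.088). It too passed without ApoE knockout replicate 5, at -0.74 (limma adjusted p = 0.030).

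Hadha, the alpha subunit of the trifunctional protein with its hydratase and long-chain dehydrogenase activities, had values of 11.00, 10.65, 11.05, 10.46 and 10.50 in the double knockout, against 11.80, 10.85, 11.30, 11.20 and 10.51 in the ApoE knockout. Double knockout replicates 4 and 5 lay just below the lowest ApoE knockout array, replicate 5, and the others lay within the range. The difference was -0.40 (SE 0.22, 95% interval -0.87 to 0.071, limma adjusted p = 0.18). Hadhb, the beta subunit with the thiolase activity, had values of 6.51, 5.97, 6.46, 5.74 and 5.82 in the double knockout, against 6.72, 5.76, 6.11, 6.03 and 5.53 in the ApoE knockout. The double knockout lay within the ApoE knockout range, and the difference was 0.071 (SE 0.22, 95% interval -0.42 to 0.56, limma adjusted p = 0.83). The Hadhb values sit close to 5.80, below which 95% of 1432 receptor genes of smell and taste lay on average. That level served here as a reference for dim probe sets. The median difference of those receptor genes was 0.29, and whether the Hadhb probe set shares that shift was not tested.

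Pdk4 phosphorylates and thereby shuts down pyruvate dehydrogenase, which keeps glucose carbon from competing with fatty acids. Its values were 11.26, 10.06, 11.42, 10.52 and 10.32 in the double knockout, against 11.52, 10.31, 11.32, 11.22 and 9.79 in the ApoE knockout. The double knockout lay within the ApoE knockout range, with replicates 1 and 3 above the other 3. Pdk4 had a spread of 2.57-fold between arrays of the double knockout and 3.32-fold in the ApoE knockout, and its difference of -0.11 had the widest interval of the 8 (SE 0.36, 95% interval -0.90 to 0.68, limma adjusted p = 0.83). Without ApoE knockout replicate 1 it was 0.060.

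Variation within the groups had a pattern common to 7 of the 8. Their ApoE knockout arrays ran in 1 order, replicate 1 highest, then 3, 4, 2 and 5, in all of Cpt2, Acadl, Acadm, Acadvl, Hadha, Hadhb and Pdk4. In the double knockout, replicates 1 and 3 were the highest of the group in all 7. With each group's mean taken off, the 21 pairs among these 7 had Pearson correlations of 0.87 to 0.99 over the 10 arrays, with a median of 0.96. Cpt1a correlated with the same 7 at -0.75 to -0.57, with a median of -0.68. These values describe the 10 arrays, and all genes of a pair share the arrays and their scaling. The 6 genes most like the mean of the measured members, treated the same way, were Slc36a2 (r = 0.995), an amino acid transporter, Hadh (0.992), the short-chain hydroxyacyl-CoA dehydrogenase, Suclg1 (0.991), a subunit of succinyl-CoA ligase, Crat (0.991), carnitine acetyltransferase, Slc2a4 (0.990), the insulin-responsive glucose transporter, and Cs (0.990), citrate synthase. Of 13519 genes above the receptor gene level 307 had r over 0.9, or 2.27%, and 54 of the 114 other measured pathway genes were among them. Between the groups 0 of these 307 genes were higher and 21 were lower in the double knockout, or 6.84%. Among all genes 22.8% were higher and 7.53% lower. When only genes above the receptor gene level were tested, from which the 307 were drawn, 14.9% were higher and 11% lower.

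The 7 genes moved from array to array with markers of fat. The mean log2 value of 9 measured brown adipocyte markers was 9.54, 9.06, 9.69, 8.69 and 8.54 in the double knockout, against 10.46, 9.20, 9.84, 9.61 and 8.13 in the ApoE knockout. Its order in the ApoE knockout was that of the 7 genes, and the groups overlapped (9.10 ± 0.51 in the double knockout and 9.45 ± 0.87 in the ApoE knockout, SD, n = 5 each). Ucp1, the uncoupling protein that defines brown fat, had values of 12.02, 11.39, 12.32, 11.11 and 10.89 in the double knockout, against 12.85, 11.68, 12.37, 12.15 and 10.23 in the ApoE knockout, well above the receptor gene level in every array. The white and general adipocyte markers averaged 8.68, 8.13, 8.88, 7.94 and 7.59 in the double knockout, against 9.52, 8.24, 8.88, 8.78 and 7.81 in the ApoE knockout. Cox8b, Cox7a1 and Cidea, further brown fat genes, had differences of -0.52, -0.59 and -0.59, none of which passed (limma adjusted p = 0.29, 0.35 and 0.31). Of the brown markers Dio2, the deiodinase that activates thyroid hormone, rose in the double knockout (0.62, limma adjusted p = 0.013) and the other 8 did not pass. None of the 8 measured white markers passed, with 7 differences negative and 1 positive. Plin1 and Cidec, 2 lipid droplet proteins, had differences of -0.60 and -0.63. Adipoq had -0.012, and Slc7a10, the positive one, had 0.40 (limma adjusted p = 0.0503).

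Over the 10 arrays with group means taken off, the 7 genes correlated with the brown marker level at r of 0.90 (Pdk4) to 0.98 (Acadl). Spearman's rho was 0.88 to 0.98, and r without the 2 arrays farthest from the median of the marker level was 0.84 to 0.96. Exact permutation within the groups, two-sided and with Benjamini-Hochberg adjustment over 16 relations to brown and white markers, gave adjusted p-values of 0.00056 to 0.0019 for r and of 0.00056 to 0.0041 for rho of these 7, the smallest unadjusted p it can give being 6.94e-05. The genes and marker lists behind these p-values were chosen with earlier results of these data known. With the white marker level r was 0.91 (Pdk4) to 0.98 (Acadm). Cpt1a correlated with the brown markers at r of -0.67 (exact permutation p = 0.044, adjusted p = 0.047) and rho of -0.61 (p = 0.086, adjusted p = 0.086). Its r was -0.38 in the 5 double knockout arrays and -0.89 in the 5 ApoE knockout arrays. Without the 2 farthest arrays its r was -0.31, so the relation of Cpt1a rests on those arrays. The marker levels differ between aortas of 1 group by more than the group means do, and their part in the gene values was not tested beyond these relations and the fit that follows.

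**Figure D2:**
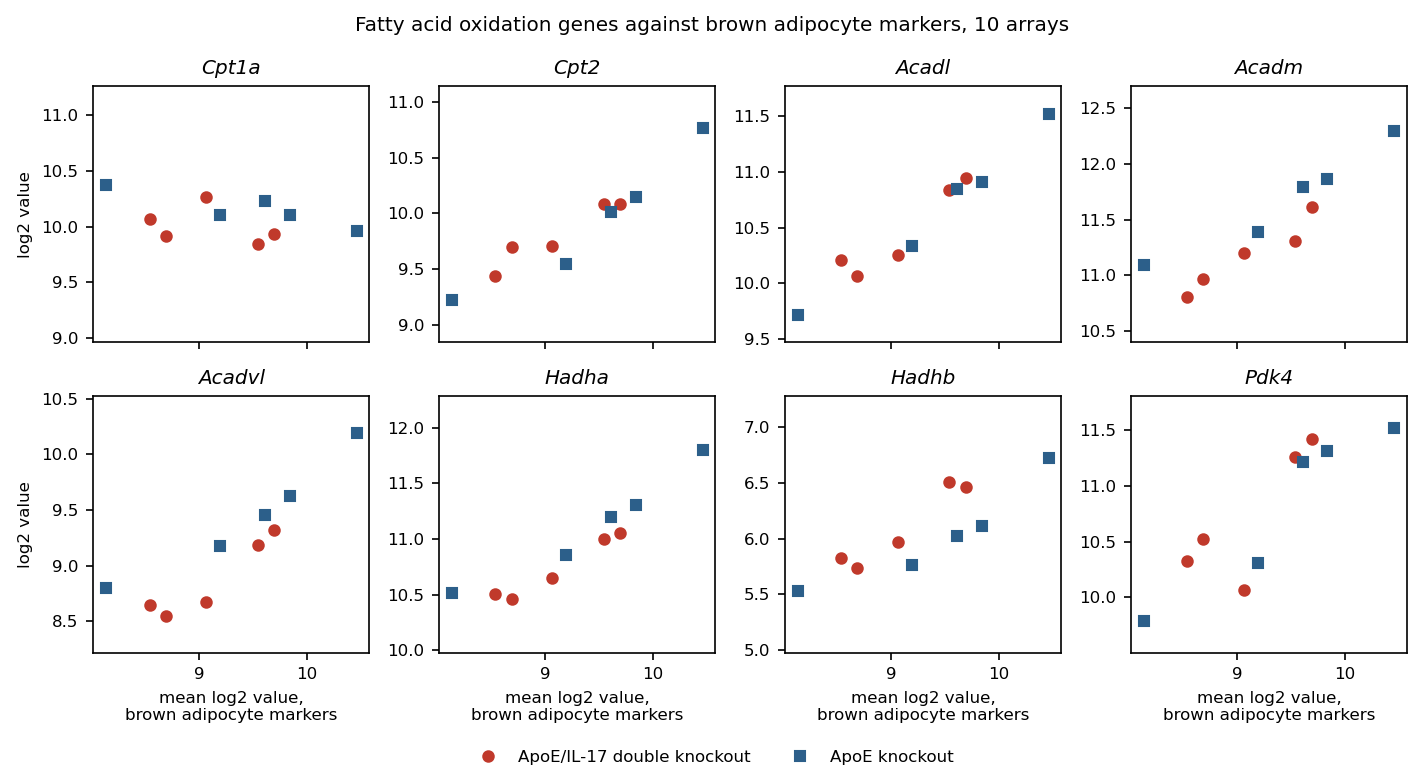
Log2 value of each measured gene (vertical axis) against the mean log2 value of 9 brown adipocyte markers (horizontal axis) in the 5 double knockout (red circles) and 5 ApoE knockout aortas (blue squares). In 7 panels the points rise from lower left to upper right in both groups, with r of 0.90 to 0.98, and for Cpt1a they do not. For Acadm and Acadvl the circles lie below the squares of like marker level.

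With the brown marker level as a covariate, a fit chosen after the data were seen, 3 of the 8 genes passed, all lower in the double knockout, where 8.47% of all genes were lower and 22.3% higher in the same fit. Acadm had a difference of -0.32 (SE 0.079, limma adjusted p = 0.013) and Acadvl of -0.37 (SE 0.091, limma adjusted p = 0.014). Hadha was at the threshold, with -0.21 (SE 0.074, limma adjusted p = 0.04999). Cpt1a had a difference of -0.20 (limma adjusted p = 0.11) and Hadhb of 0.26 (limma adjusted p = 0.076), neither of which passed. Cpt2, Acadl and Pdk4 turned positive in this fit, at 0.079, 0.059 and 0.18, and did not pass. One of the 9 markers, Dio2, itself rose in the double knockout, and the covariate takes the slope to be equal in both groups.

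**Figure D3:**
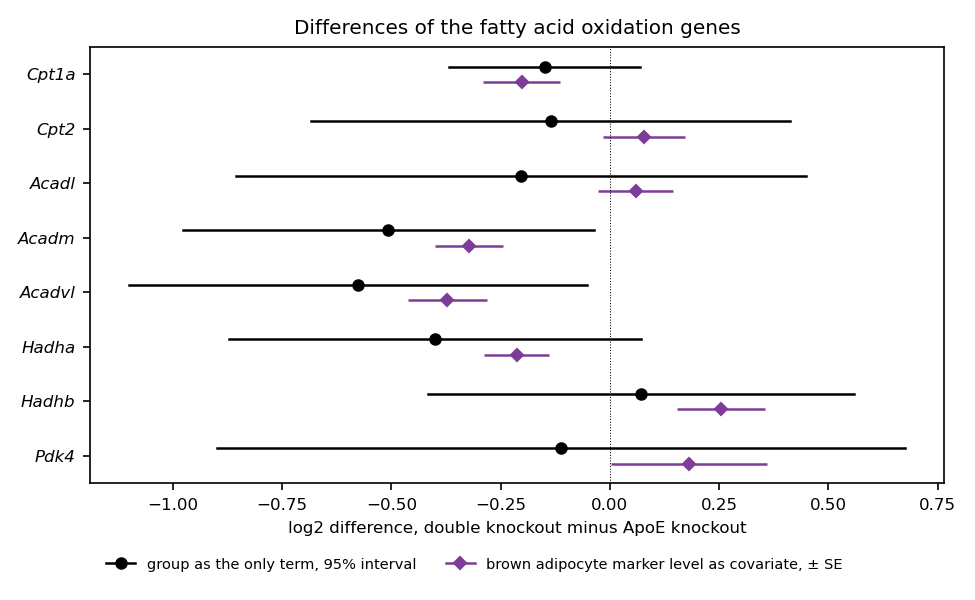
Log2 difference, double knockout minus ApoE knockout (horizontal axis), of the 8 measured genes with group as the only term (black circles, 95% interval) and with the brown adipocyte marker level as a covariate (purple diamonds, ± SE). With group alone the intervals of Acadm and Acadvl lie below 0 and the other 6 include it. With the covariate Acadm, Acadvl and Hadha stand at -0.32, -0.37 and -0.21.

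Differences between 2 genes on the same array cancel whatever the array changes equally in both, and they show unequal change, not that either gene stayed constant. They were looked at after the data were seen. Among the 28 pairs of the 8 genes 5 separated the groups without overlap, all of them among the 21 pairs without Cpt1a. Each had an exact permutation p of 0.0079, two-sided, which is the smallest the 252 assignments allow, and an adjusted p of 0.044 over the 28 pairs. In 3 of the 5 Acadvl stood lower in the double knockout relative to its partner. Cpt2 minus Acadvl was 0.93 ± 0.16 in the double knockout and 0.49 ± 0.088 in the ApoE knockout, and Acadl minus Acadvl was 1.59 ± 0.054 in the double knockout and 1.22 ± 0.19 in the ApoE knockout (SD, n = 5 each). Of the 5, 3 involve the dim Hadhb, and Acadvl minus Hadhb belongs to these as well as to the 3 with Acadvl lower. Acadm minus Hadhb was 5.08 ± 0.19 in the double knockout and 5.66 ± 0.097 in the ApoE knockout. Acadvl minus Hadhb was 2.77 ± 0.081 in the double knockout and 3.42 ± 0.088 in the ApoE knockout. Hadha minus Hadhb, the 2 subunits with the shared promoter stretch printed above, was 4.63 ± 0.092 in the double knockout and 5.10 ± 0.082 in the ApoE knockout. Among the 46971 pairs of the 307 genes that run with these enzymes, 12.7% likewise separated the groups, so such separation is common among genes of this pattern. After quantile normalization 4 of the 5 still separated the groups, Hadha minus Hadhb did not, and 0 passed (adjusted p = 0.056).

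**Figure D4:**
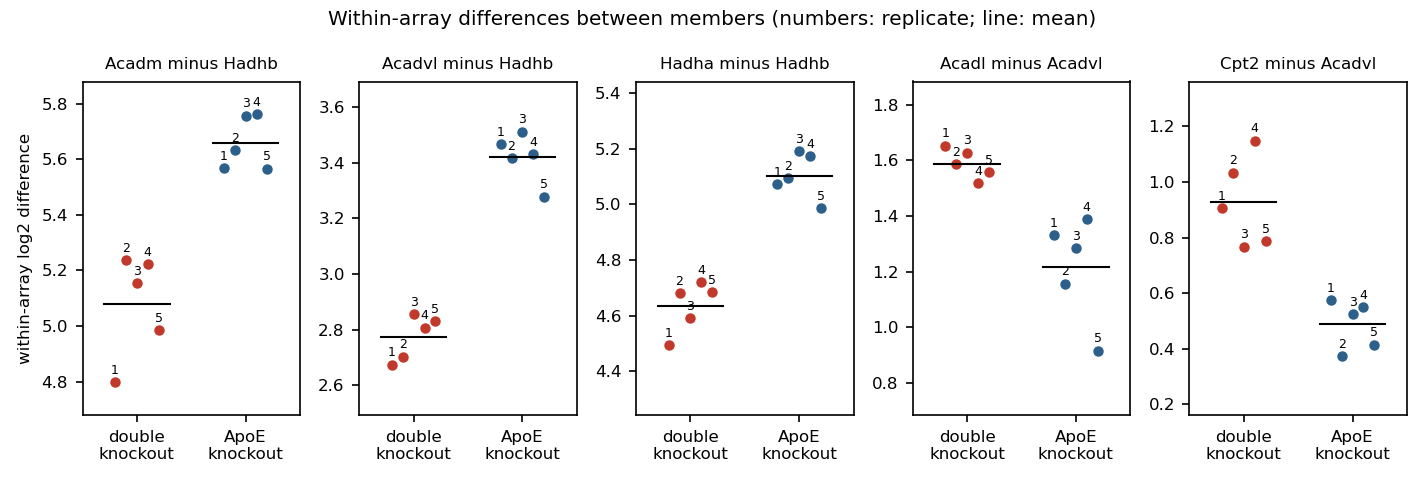
Within-array log2 difference (vertical axis, the same span in every panel) of the 5 gene pairs whose groups do not overlap, in double knockout (red, left) and ApoE knockout aortas (blue, right). Numbers name the replicate and lines give the mean of 5. The double knockout lies below the ApoE knockout in the 3 pairs with Hadhb and above it in the 2 pairs with Acadvl as second gene.

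Other tissues in the sample were followed by their markers. Cardiac muscle markers averaged 6.83 ± 0.28 in the double knockout and 6.27 ± 0.16 in the ApoE knockout, with 6 of 10 higher. Among them Ryr2, the calcium release channel of heart muscle, rose by 0.83 and Tnnt2, cardiac troponin T, by 0.62 (limma adjusted p = 0.0023 and 0.0065). Ryr2 did not follow the cardiac mean within the double knockout. In replicate 2, where that mean (7.31) and Tnnt2 (9.38) were the highest of the group, Ryr2 was the lowest (7.74). Of the 6 higher, Actc1, Myl2 and Mybpc3 had ApoE knockout means below the receptor gene level, and the receptor genes themselves had a median difference of 0.29. Smooth muscle markers had 3 of 8 higher, fibroblast markers 2 of 8 higher and skeletal muscle markers 1 of 10 higher, none of them with any lower. Endothelial markers had 2 of 8 lower, macrophage markers 0 of 8 called, T cell markers 3 of 6 lower and erythroid markers 5 of 6 lower. Beside these counts, 22.8% of all genes were higher and 7.53% lower. The erythroid mean was 6.88 to 7.56 in the double knockout, against 9.38 to 10.31 in the ApoE knockout, with no overlap. The part of these tissues in the differences of the oxidation genes was not tested.

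Outside the 9 genes, 114 of 123 genes of 12 lists around the pathway were measured. Of these 7 rose, or 6.14%, and 12 fell, or 10.5%, in the double knockout, and 95 did not pass. The shares among all genes were 22.8% higher and 7.53% lower. They were 14.9% higher and 11% lower when only genes above the receptor gene level were tested. The median difference of the 114 genes was -0.19. Of the 7 that rose, 3 (Acsl6, Bdh1 and Esrrb) had ApoE knockout means below the receptor gene level. Leaving out each array in turn kept 9 of the 19 calls throughout, those of Slc27a3, Acsl6, Amacr, Prkab1, Prkab2, Pdp1, Esrrb, Mgll and Suclg2, and quantile normalization kept 10 of the 19. The calls lost most often were those of Acsl5 and Ppard, each in 8 of the 10 fits, Echs1, Acat1 and Bdh1, each in 7, Rxrb in 6 and Hsd17b4 in 4, while Creb3l3, Hsd17b10 and Rxra were lost in 2, 2 and 1. Of the 7 that rose, 5 were lost after quantile normalization and all 7 after centring.

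**Figure D5:**
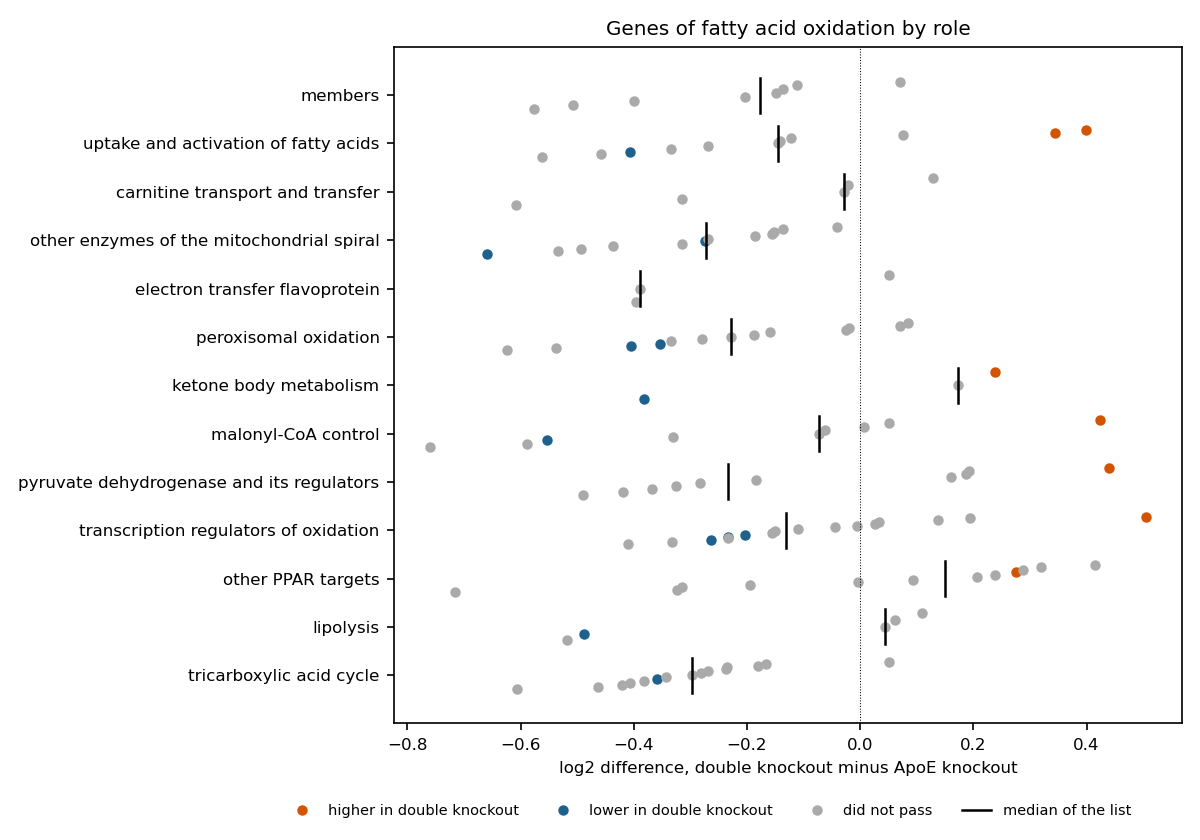
Log2 difference, double knockout minus ApoE knockout (horizontal axis), of every measured gene of the 9 enzymes (members, top row) and of 12 lists around the pathway, with orange points higher and blue points lower in the double knockout at an adjusted p of 0.05, grey points not passed and a bar at each list's median. Of the 114 genes outside the top row 7 are orange and 12 blue, and the medians lie left of 0 except in ketone body metabolism, other PPAR targets and lipolysis.

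Uptake and activation brings fatty acids into the cell and couples them to CoA. Of 11 measured genes 2 rose and 1 fell, with a median of -0.14. Slc27a3, a fatty acid transport protein with acyl-CoA synthetase activity, rose by 0.40 (limma adjusted p = 0.010), and Acsl6, an acyl-CoA synthetase best known in brain, by 0.34 (limma adjusted p = 0.0092). Both calls ended after quantile normalization, where Slc27a3 had 0.22 and Acsl6 0.14 (limma adjusted p = 0.13 and 0.23), and after centring (0.19 and 0.14). Acsl5, an acyl-CoA synthetase of mitochondria and endoplasmic reticulum, had values of 9.10, 9.39, 9.09, 8.98 and 9.15 in the double knockout, against 10.02, 9.36, 9.68, 9.46 and 9.21 in the ApoE knockout. Only double knockout replicate 2 lay above the lowest 2 ApoE knockout arrays, and the fall of 0.41 was close to the threshold (limma adjusted p = 0.048) and missed it after quantile normalization (-0.37, limma adjusted p = 0.080). Cd36, the fatty acid translocase, had a difference of -0.56, Slc27a1 of -0.46 and Slc27a4 of -0.33, none of which passed (limma adjusted p = 0.092, 0.084 and 0.053). In carnitine transport and transfer 0 of 5 genes passed, with a median of -0.029. The carnitine acylcarnitine carrier Slc25a20, which works between the 2 palmitoyltransferases, had values of 9.39, 9.02, 9.54, 8.61 and 8.66 in the double knockout, against 10.44, 9.39, 9.88, 9.70 and 8.84 in the ApoE knockout. Its order in the ApoE knockout was that of the 7 enzymes, and its difference was -0.61 (limma adjusted p = 0.11). Crat and Cpt1c, a brain form of the transferase, had differences of -0.31 and 0.13.

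The other enzymes of the mitochondrial spiral had 12 of 12 differences negative, with a median of -0.27. That median was 0.10 over all genes and 0.010 over genes above the receptor gene level. Of the 12, 2 fell, where 7.53% of all genes did. When only genes above the receptor gene level were tested, 11% fell. Of the 114 other measured pathway genes, 54 followed the enzymes at r over 0.9, so these signs are not separate observations. Echs1, the short-chain enoyl-CoA hydratase of the second step, had values of 9.75, 9.38, 9.84, 9.07 and 9.13 in the double knockout, against 10.77, 9.84, 10.25, 10.10 and 9.51 in the ApoE knockout. Double knockout replicates 2, 4 and 5 lay below every ApoE knockout array. It was 1.58-fold lower in the double knockout (log2 difference -0.66, SE 0.23, limma adjusted p = 0.046), a call that quantile normalization ended (-0.62, limma adjusted p = 0.080). Hsd17b10, which acts on short branched chains, fell by 0.27 without overlap of the groups (limma adjusted p = 0.025). Hadh, the short-chain partner of the trifunctional protein's dehydrogenase, had values of 11.85, 11.40, 12.02, 11.34 and 11.29 in the double knockout, against 12.78, 11.90, 12.26, 12.18 and 11.44 in the ApoE knockout, a difference of -0.53 that did not pass (limma adjusted p = 0.097). Eci1, an isomerase for unsaturated chains, had a difference of -0.49 and Acad10 of -0.19 (limma adjusted p = 0.19 and 0.27). Electrons from the dehydrogenases leave through the electron transfer flavoprotein, of which 0 of 3 genes passed. Etfb and Etfdh had differences of -0.40 and -0.39, while Etfa had one of 0.052.

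Peroxisomes shorten very long and branched chains before they reach mitochondria. Of 13 measured genes 2 fell and 0 rose, with a median of -0.23. Hsd17b4, the D-bifunctional protein, fell by 0.40 and Amacr, the racemase for branched chains, by 0.35 (limma adjusted p = 0.025 and 0.018). Ech1 had a difference of -0.54, Scp2 of -0.33 and Decr2 of -0.23, none of which passed (limma adjusted p = 0.064, 0.13 and 0.12). Of 3 measured ketone body genes Acat1, the acetoacetyl-CoA thiolase, fell by 0.38 (limma adjusted p = 0.048) and Bdh1, which converts hydroxybutyrate, rose by 0.24 (limma adjusted p = 0.030). After quantile normalization neither passed, with -0.34 for Acat1 and 0.026 for Bdh1 (limma adjusted p = 0.10 and 0.83), and after centring Bdh1 had 0.034 (limma adjusted p = 0.76). Oxct1, the enzyme that lets a tissue use ketone bodies, had a difference of 0.17 without overlap of the groups, which did not pass (limma adjusted p = 0.078).

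Malonyl-CoA, made by acetyl-CoA carboxylase under the control of AMP-activated protein kinase, inhibits the first palmitoyltransferase. Of 9 genes 1 rose and 1 fell, and both encode beta subunits of the kinase. Prkab1 had values of 9.04, 9.21, 8.84, 8.91 and 9.06 in the double knockout, against 9.61, 9.61, 9.52, 9.61 and 9.49 in the ApoE knockout. The groups did not overlap, and the 1.47-fold fall (log2 difference -0.55, SE 0.079, limma adjusted p = 0.00085) passed in every alternative tried. Prkab2 had values of 8.66, 8.51, 8.85, 8.71 and 8.86 in the double knockout, against 8.26, 8.10, 8.37, 8.22 and 8.53 in the ApoE knockout. Only double knockout replicate 2 fell within the ApoE knockout range, and the rise was 0.42 (SE 0.097, limma adjusted p = 0.0085), a call lost after centring (0.22, limma adjusted p = 0.11). Neither beta subunit showed the array order of the 7 enzymes. Acacb, the carboxylase at the mitochondrial membrane, had values of 8.41, 8.00, 8.64, 7.84 and 7.90 in the double knockout, against 9.75, 8.58, 9.10, 9.24 and 7.93 in the ApoE knockout, a difference of -0.76 that did not pass (limma adjusted p = 0.070). Acaca had a difference of -0.59 and Mlycd, which degrades malonyl-CoA, of -0.33 (limma adjusted p = 0.16 and 0.093).

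Pyruvate dehydrogenase is the target of Pdk4. Of 10 genes of the complex and its regulators 1 rose, and it was Pdp1, the phosphatase that reverses the action of the kinases. Pdp1 had values of 8.85, 8.43, 8.80, 8.83 and 8.78 in the double knockout, against 8.40, 8.07, 8.31, 8.32 and 8.39 in the ApoE knockout. The groups did not overlap, replicate 2 was the lowest of each, and the rise was 0.44, or 1.36-fold (SE 0.097, limma adjusted p = 0.0072), a call lost after centring (0.24, limma adjusted p = 0.074). The subunits Pdha1, Pdhb and Pdhx had differences of -0.49, -0.42 and -0.33, none of which passed (limma adjusted p = 0.081, 0.17 and 0.18).

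Of 16 transcription regulators 3 fell and 1 rose, with a median of -0.13. Ppard, the PPAR delta receptor, had values of 8.65, 8.79, 8.75, 8.56 and 8.84 in the double knockout, against 8.87, 8.92, 8.98, 8.92 and 8.92 in the ApoE knockout. It fell by 0.20 without overlap (limma adjusted p = 0.045), a call that was lost when any 1 of 8 of the 10 arrays was left out and after quantile normalization (-0.18, limma adjusted p = 0.071). The RXR partners Rxra and Rxrb fell by 0.26 and 0.23 without overlap (limma adjusted p = 0.021 and 0.032). Esrrb, an orphan receptor below the receptor gene level in both groups, rose by 0.51 (limma adjusted p = 0.0092), but not past the threshold after quantile normalization (0.26, limma adjusted p = 0.13) or centring (0.30, limma adjusted p = 0.065). Nrip1, a corepressor of oxidation genes in fat, had a difference of -0.16, Lpin1 of -0.41 and Esrrg of 0.19, none of which passed (limma adjusted p = 0.081, 0.23 and 0.33). Of 12 other PPAR targets 1 rose, Creb3l3 by 0.28 (limma adjusted p = 0.022), and the median was 0.15. Creb3l3 had 0.082 after quantile normalization and 0.071 after centring and passed in neither (limma adjusted p = 0.49 and 0.52). Acot2, a mitochondrial thioesterase, had a difference of -0.72, Angptl4, an inhibitor of lipoprotein lipase, of 0.41 and Fgf21 of 0.32 from a level below that of the receptor genes in the ApoE knockout, none of which passed (limma adjusted p = 0.057, 0.064 and 0.0504).

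Lipolysis frees the fatty acids that the spiral consumes. Of 5 genes 1 fell, Mgll, the monoglyceride lipase of the last step, with values of 8.85, 8.70, 8.89, 8.53 and 8.52 in the double knockout, against 9.57, 9.07, 9.30, 9.05 and 8.92 in the ApoE knockout. The groups did not overlap, and the fall of 0.49 (SE 0.13, limma adjusted p = 0.015) passed with each array left out in turn. Lipe, the hormone-sensitive lipase, had a difference of -0.52, Abhd5 of 0.11 and G0s2 of 0.045 (limma adjusted p = 0.17, 0.42 and 0.84). The tricarboxylic acid cycle burns the acetyl-CoA that the spiral yields. Its 15 measured genes had a median difference of -0.30, beside 0.10 over all genes and 0.010 over those above the receptor gene level. Of the 15, 14 had negative differences and 1 fell. Since the genes share the arrays, these signs are not separate observations either. Suclg2, the GTP-forming subunit of succinyl-CoA ligase, fell by 0.36 without overlap (limma adjusted p = 0.0074), but the mean of all its probe sets did not pass (limma adjusted p = 0.47). Ogdh, Idh3b and Sdhc had differences of -0.41, -0.46 and -0.30, none of which passed (limma adjusted p = 0.061, 0.070 and 0.078).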

How the data were processed

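Expression was measured in 10 aortas with 1 array each, 5 per genotype. The authors deposited 1 value per probe set and array on a log scale. The base was taken as 2 from the range of the deposited log2 values, since it is not stated. How background was corrected and arrays were normalized is not given in the labels or files used here. Limma is named in the submitters' processing notes without a role. Of 41345 probe sets, 23521 had 1 gene symbol in the platform annotation, 1814 had several and were not used by name, and 16010 are unnamed here. Gene identifiers of 23328 were found in the reference gene table. Array medians ran from 5.76 to 6.03.

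No filter or further normalization was applied. Genes were tested with lmFit and eBayes (limma 3.58.1, R 4.3.3), group as the only term, two-sided, Benjamini-Hochberg adjustment over 22180 genes, threshold 0.05. The limma p-values set each group difference against the spread between arrays within the groups, and the number of arrays limits precision. The code was tested on simulated data. Sequences, motifs and figures used Python 3.11.15 and matplotlib 3.10.9.

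The 9 genes, the 12 pathway lists and the 10 marker lists (brown and white adipocytes, cardiac, skeletal and smooth muscle, endothelium, fibroblasts, macrophages, T cells, erythroid cells) were chosen with earlier results of these data known. Named genes are all 9, up to 6 called genes and 3 further genes by smallest p of each pathway list, up to 4 genes of highest level and called adipocyte and cardiac genes of the marker lists, and the 6 most alike genes.

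Alternatives were quantile normalization, centring, filters on dim genes, other probe set rules, a trended robust prior, weights per array, replicate numbers as a block, a test of each gene on its own variance, a stricter threshold, leaving out each array and a marker covariate.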

Additional observations from a re-analysis of the deposited data

Results flagged for a closer look

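Among 182 groups of 5 arrays checked (91 genes and marker means in 2 groups), 5 held a highest or lowest array far from the rest. Chance gives about 1 in 20, a share that 5 of 182 does not reach, so these 5 are no more than chance would give. None of the 8 measured enzymes was among them. Pdp1, the pyruvate dehydrogenase phosphatase, had such a lowest array in both groups, with 8.43 in double knockout replicate 2, against 8.78 for the next, and 8.07 in ApoE knockout replicate 2, against 8.31 for the next. Fgf21 stood at 6.25 in its highest double knockout array, with the next at 5.87. The cardiac muscle markers averaged 6.55 in their highest ApoE knockout array, with the next at 6.23. The skeletal muscle markers averaged 6.47 in their highest ApoE knockout array, replicate 2, with the next at 5.54.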

How the results depend on the processing

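The count of oxidation enzymes called was 0 lower in the deposited values and stayed at 0 higher in every setting. It was 4 lower after centring (Cpt1a, Acadm, Acadvl and Hadha), 2 with array weights, 2 with the replicate block (both times Acadm and Acadvl; with the block 8.04% of all genes were lower) and 3 with the marker covariate, and leaving out 1 array gave 0 to 2, with 2 (Acadm and Acadvl) without ApoE knockout replicate 5. Of 175 member results 149 kept direction and call, 13 turned direction and 13 newly passed. Hadhb turned to -0.11 after quantile normalization and -0.13 after centring, and ranged from -0.055 to 0.24 with 1 array left out. Such ranges were -0.37 to 0.060 for Pdk4, -0.32 to 0.071 for Cpt2 and -0.44 to 0.011 for Acadl, and the covariate turned these 3 to 0.18, 0.079 and 0.059. Of the gene pairs, 5 passed as reported and 0 after quantile normalization, where 4 still separated the groups.

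Other pathway genes called higher, 7 as reported, were 2 after quantile normalization, 0 after centring, 2 among genes above the median level, 4 at an adjusted p of 0.01 and 5 to 8 with 1 array left out. Those called lower, 12 as reported, were 49 after centring, 24 with array weights, 26 with the replicate block, 7 by the test of each gene on its own variance, 2 at 0.01, 25 with the covariate and 4 to 27 with 1 array left out, the 27 without ApoE knockout replicate 5, the 4, 6 and 7 without ApoE knockout replicate 3 and double knockout replicates 4 and 5. All genes called higher, 5050 as reported, were 1982 after quantile normalization, 1669 after centring, 1410 and 2013 with the filters at the median and receptor gene level, 8742 over all probe sets, 2336 at 0.01 and 3935 to 5097 with 1 array left out. All genes called lower, 1671 as reported, were 5641 after centring, 634 at 0.01 and 1121 to 1925 with 1 array left out. The cause was not tested. Same-numbered arrays of the groups deviated together with correlations of -0.13 to 0.26, so the numbers were not taken as pairing. Hadhb lies below the filter at the median level and has no value there.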
